A study of Mus musculus with 3 samples.

Results

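Small nucleolar RNAs (snoRNAs) were described in mouse liver across 3 libraries. They were taken as the genes whose symbol starts with Snord or Snora followed by a digit. The tables have 23850 rows each, of which 121 matched, and keeping the row with the highest mean level for a repeated symbol left 109 genes. The symbols divide them into 73 box C/D snoRNAs (Snord) and 36 H/ACA snoRNAs (Snora).

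The libraries hold ribosomal-RNA-depleted total RNA from the livers of mice aged 16 weeks on a C57BL6J/FVB background, with 1 library per group. Ercc1 AL came from Ercc1 delta/- mice fed ad libitum, Ercc1 DR from Ercc1 delta/- mice under diet restriction, and wt AL from wild-type mice fed ad libitum. The delta/- genotype joins a null allele with a second mutant allele, and ERCC1 is a subunit of a DNA repair endonuclease. The number of animals behind a library, their sex and the degree of restriction are not stated in the labels. With 1 library per group, no difference below has a replicate check, so values stand without tests or errors between animals. In tissue RNA, fewer cells of a type and less RNA per cell cannot be told apart.

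snoRNAs guide chemical changes of ribosomal RNA in the nucleolus. A box C/D snoRNA holds the short boxes C (TGATGA) and D (CTGA), binds fibrillarin, NOP56, NOP58 and the 15.5K protein, and directs methylation of a ribose. An H/ACA snoRNA ends in a box ACA, binds dyskerin, NHP2, NOP10 and GAR1, and directs the change of uridine to pseudouridine, and a few snoRNAs take part in cleaving the ribosomal RNA precursor instead. Most mammalian snoRNAs are cut from introns of host genes, many of which encode ribosomal proteins or translation factors, so a host transcript and its snoRNA share a promoter but have separate fates after splicing.

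The sequences of the members on which the results turn are given 5′ to 3′, from GENCODE release 21 transcripts on the mouse build GRCm38 (mm10). In the box C/D members capitals mark TGATGA within the first 30 bases and the last CTGA within the final 30 bases. Snord104 and Snord73a had the highest mean FPKM of the members. Snord104 lies at chr11:106500993-106501062 on the plus strand, and Snord73a at chr3:86138791-86138858 on the minus strand, in an intron of Rps3a1.
Snord104: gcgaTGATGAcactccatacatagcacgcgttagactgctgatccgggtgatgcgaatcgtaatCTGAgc
Snord73a: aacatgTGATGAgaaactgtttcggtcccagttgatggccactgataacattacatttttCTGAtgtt

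Snord96a (chr11:48802032-48802112) and Snord95 (chr11:48803139-48803206), both on the plus strand, are shown because they share the host Gnb2l1 and were both lower in Ercc1 AL than in wt AL.
Snord96a: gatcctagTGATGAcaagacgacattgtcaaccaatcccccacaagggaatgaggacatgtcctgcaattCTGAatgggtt
Snord95: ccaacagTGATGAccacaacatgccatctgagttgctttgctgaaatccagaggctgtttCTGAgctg

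Snord32a (chr7:45127382-45127464), Snord33 (chr7:45126864-45126947), Snord34 (chr7:45126601-45126670) and Snord35a (chr7:45126346-45126435) lie in introns of Rpl13a on the minus strand, and are shown because Snord32a and Snord35a differed from their neighbours. Snord34 and Snord35a hold no exact TGATGA in that window. Snord15a (chr7:99482785-99482932) and Snord15b (chr7:99479563-99479707) lie in introns of Rps3 on the minus strand, and are shown because both were lowest in Ercc1 AL.
Snord32a: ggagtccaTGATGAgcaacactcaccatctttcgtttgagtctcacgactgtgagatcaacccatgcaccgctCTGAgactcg
Snord33: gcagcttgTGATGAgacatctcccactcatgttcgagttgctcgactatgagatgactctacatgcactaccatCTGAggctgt
Snord34: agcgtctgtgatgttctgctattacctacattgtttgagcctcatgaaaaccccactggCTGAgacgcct
Snord35a: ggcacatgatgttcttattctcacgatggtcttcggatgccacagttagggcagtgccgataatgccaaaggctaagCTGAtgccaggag
Snord15a: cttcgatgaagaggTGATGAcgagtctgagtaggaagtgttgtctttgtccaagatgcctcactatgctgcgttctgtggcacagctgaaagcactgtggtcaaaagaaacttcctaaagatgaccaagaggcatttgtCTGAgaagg
Snord15b: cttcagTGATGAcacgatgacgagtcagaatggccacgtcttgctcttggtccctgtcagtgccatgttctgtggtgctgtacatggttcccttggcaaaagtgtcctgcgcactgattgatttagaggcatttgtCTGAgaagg

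Among the H/ACA members, capitals mark the last ACA within the final 12 bases. Snora41 (chr1:63179004-63179135, plus strand, intron of Eef1b2) and Snora26 (chr5:74093530-74093650, plus strand, intron of Dancr) had the lowest ratios between the diets, and Snora24 (chr3:123507937-123508066, minus strand, intron of Snhg8) the highest ratio of Ercc1 AL to wt AL.
Snora41: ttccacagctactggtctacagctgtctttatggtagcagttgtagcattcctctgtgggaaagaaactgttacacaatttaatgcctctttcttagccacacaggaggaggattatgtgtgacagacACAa
Snora26: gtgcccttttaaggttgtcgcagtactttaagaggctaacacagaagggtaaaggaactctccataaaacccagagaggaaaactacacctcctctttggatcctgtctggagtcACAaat
Snora24: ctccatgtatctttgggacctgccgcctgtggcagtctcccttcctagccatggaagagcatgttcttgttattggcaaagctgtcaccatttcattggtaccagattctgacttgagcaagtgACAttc

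GENCODE gave a transcript at the row's own place for 65 of the 73 box C/D genes and 35 of the 36 H/ACA genes. Both boxes stood in their windows in 41 of the 65 box C/D transcripts and in 0 of the 35 H/ACA transcripts, searched on the transcript strand. CTGA alone stood in 65 of 65 box C/D transcripts and in 5 of 35 H/ACA transcripts. The ACA stood in 33 of 35 H/ACA transcripts and in 7 of 65 box C/D transcripts. Among 3313 other GENCODE miRNA and snRNA transcripts of 60 to 160 bases, 0.0604% held both boxes and 16.8% the ACA. The 2 classes are defined by these boxes, so the counts describe the members and give no separate support for the split by symbol.

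Levels were deposited as FPKM (fragments per kilobase of transcript, relative to the mapped fragments of the library), with a lower and an upper bound. For short rows this scale is inflated. Snord104 was at 6114700 FPKM in Ercc1 AL, 4032690 in Ercc1 DR and 4567010 in wt AL. In 48 box C/D and 28 H/ACA members the FPKM lay far above its own interval, at 5.10 to 1197 times the interval's midpoint for box C/D and 5.07 to 104 times for H/ACA. The factor followed the length of the row (Spearman's rho -0.99 over 48 box C/D members and -0.94 over 28 H/ACA members) and was nearly the same in the 3 libraries, with a largest ratio of 1.04 among members with at least 100 implied fragments. For members above that limit, ratios of 1 member between libraries therefore keep their meaning. The order of levels between members of different length does not. With fewer than 100 implied fragments the factor could differ more between libraries. For Snora15 it was 20.96 in Ercc1 AL, 20.15 in Ercc1 DR and 17.65 in wt AL, so ratios of such members are less certain.

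Fragments implied by the width of the interval, each bound taken as 2 SD, give a second view of abundance. Box C/D members took 5.32% of implied fragments in Ercc1 AL, 4.03% in Ercc1 DR and 4.81% in wt AL. H/ACA members took 0.132% in Ercc1 AL, 0.1002% in Ercc1 DR and 0.131% in wt AL. Rows without an estimate, or whose lower bound is not positive, are left out of these shares. Without an estimate were 19 box C/D genes in Ercc1 AL, 19 in Ercc1 DR and 17 in wt AL, and 4 H/ACA genes in each library. Over all rows the implied depth was 25.1 M in Ercc1 AL, 25.03 M in Ercc1 DR and 19.0 M in wt AL. The deposited interval of the median box C/D member reached 4.09% of its midpoint to either side in Ercc1 AL, 6.06% in Ercc1 DR and 5.73% in wt AL, and that of the median H/ACA member 9.92%, 11.5% and 10.2% in the same order. These intervals cover counting in 1 library and not the spread between animals.

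Not all members could be read. In all 3 libraries 17 box C/D and 4 H/ACA genes had the status HIDATA, which holds no estimate, and Snord110 and Snord57 had it in Ercc1 AL and Ercc1 DR but not in wt AL. Each of these 23 genes lay in a host with the same status in at least 1 library, 11 hosts in all, among them Gas5, Snhg1, Snhg12, Rpl3, Rpl23a, Eif4a2 and Nop56. Snord93 was listed near 0 in the 3 libraries. That left 53 box C/D and 32 H/ACA members, all of which passed the minimum of 1 FPKM in either library of each comparison. Among the low FPKM values were those of the imprinted Snord116 and of Snora35, a snoRNA in the serotonin receptor gene Htr2c known from brain. Snora35 was at 3.18 FPKM in Ercc1 AL, 1.97 in Ercc1 DR and 5.16 in wt AL.

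**Figure D1:**
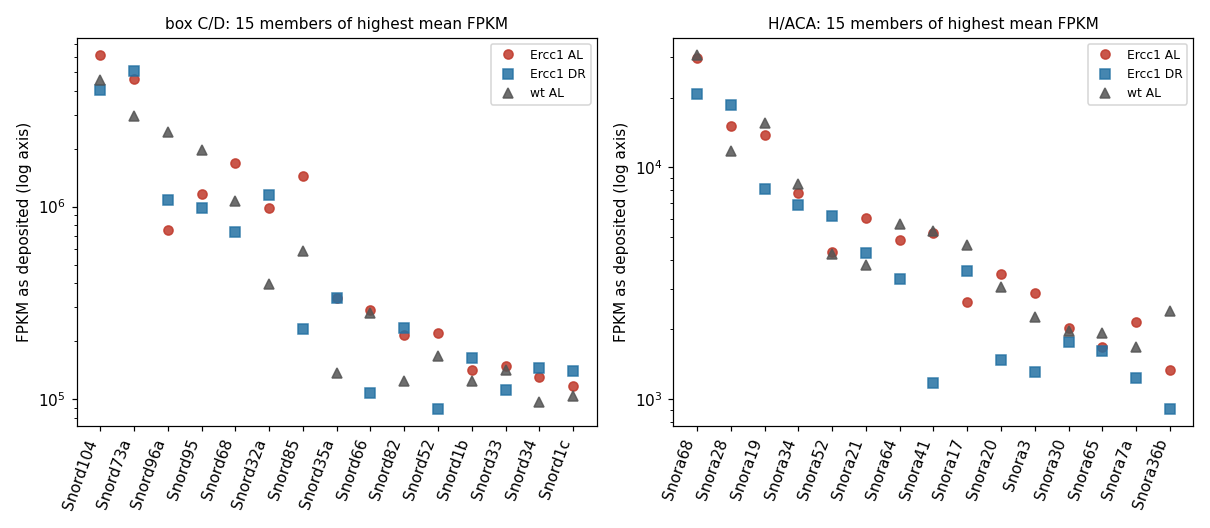
Deposited FPKM (log axis) of the 15 box C/D members (left) and the 15 H/ACA members (right) with the highest mean, 1 point per library. Snord96a and Snord95 have their wt AL points above both Ercc1 libraries, Snord32a and Snord35a have theirs below both, and Snord85 and Snora41 have their Ercc1 DR points lowest.

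The libraries differed in general level. The median log2 FPKM ratio over 9109 genes with at least 1 FPKM in every library was 0.49 for Ercc1 AL against wt AL, 0.33 for Ercc1 DR against Ercc1 AL and 0.78 for Ercc1 DR against wt AL. Log2 ratios below are of FPKM + 1 with that median set to 0, unless called as deposited, and a member was called higher or lower at 2-fold. A second scale matters for snoRNAs, since the 715 rows of other small RNAs, 677 of them microRNAs, moved apart from the longer genes. These rows took 23.4% of implied fragments in Ercc1 AL, 14.4% in Ercc1 DR and 28.8% in wt AL. Rows without an estimate, 17 in Ercc1 AL, 5 in Ercc1 DR and 11 in wt AL, are left out of these shares.

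Setting Ercc1 AL against wt AL asks how the genotype goes with snoRNA levels under free feeding. Box C/D members stood near the general level, with a median log2 ratio of -0.07 over 53. Of these, 3 were called higher, 5.66% against 1.87% of all rows, and 9 lower, 17.0% against 6.47% of all rows. H/ACA members had a median of -0.48 over 32, with 2 called higher (6.25%) and 4 lower (12.5%). As deposited, the medians were 0.42 and 0.02, so the sign of both medians depends on the scaling. Of box C/D members 11 were then higher (20.8%) against 5.57% of all rows, and 3 lower (5.66%) against 2.18%. Other small RNA rows had a median of 0.24 and rows that are no small RNA a median of -0.16. On a scale set by the other small RNAs, 0 box C/D and 2 H/ACA members (6.25%) were called higher against 1.24% of all rows. Called lower were 11 box C/D (20.8%) and 4 H/ACA members (12.5%) against 10.8% of all rows.

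Both members inside Gnb2l1 were called lower in Ercc1 AL than in wt AL. This gene encodes the ribosomal scaffold protein RACK1. Snord96a was at 753487 FPKM in Ercc1 AL, 1081200 in Ercc1 DR and 2454600 in wt AL. Its log2 ratio was -2.20 for Ercc1 AL against wt AL and -1.96 for Ercc1 DR against wt AL, from 74527 implied fragments in Ercc1 AL, 91992 in Ercc1 DR and 181641 in wt AL. Snord95 was at 1162630 FPKM in Ercc1 AL, 985928 in Ercc1 DR and 1975760 in wt AL, with a log2 ratio of -1.26 for Ercc1 AL against wt AL and -1.78 for Ercc1 DR against wt AL. Both members were lower in each Ercc1 library than in wt AL, also as deposited, where the ratio of Snord95 for Ercc1 AL against wt AL was -0.77. Their host went the other way, at 53.1 FPKM in Ercc1 AL, 94.3 in Ercc1 DR and 32.2 in wt AL, and its rescaled log2 ratio was 0.21 for Ercc1 AL against wt AL.

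Snord15a and Snord15b, box C/D members in Rps3 known as U15, were also lowest in Ercc1 AL. Snord15a was at 3813 FPKM in Ercc1 AL, 10612 in Ercc1 DR and 7864 in wt AL, a log2 ratio of -1.54 for Ercc1 AL against wt AL and 1.14 for Ercc1 DR against Ercc1 AL. Snord15b was at 17414 FPKM in Ercc1 AL, 30711 in Ercc1 DR and 22425 in wt AL, with ratios of -0.86 and 0.49 for the same comparisons. The 2 members thus had the same order of libraries, and neither passed 2-fold between Ercc1 DR and wt AL (-0.35 and -0.33). Rps3 itself was at 17.9 FPKM in Ercc1 AL, 26.9 in Ercc1 DR and 10.9 in wt AL.

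Other box C/D members called lower in Ercc1 AL than in wt AL were Snord92 in Wdr43 (-1.39), Snord19 in Gnl3 (-1.38), Snord23 in Gltscr2 (-1.29), Snord88a (-1.47), Snord7 (-1.24) and Snord14c (-3.25). As deposited, Snord92 (-0.90), Snord19 (-0.89), Snord23 (-0.80), Snord88a (-0.98) and Snord7 (-0.74) were short of 2-fold. Snord88a rested on 46.9 implied fragments in Ercc1 AL and 85.4 in wt AL. Snord14c, a U14 copy read from a row of 22 bases that overlaps the row of Snord14d, and Snord7 had the status LOWDATA. The intervals of Snord14c overlapped, each with a lower bound of 0. They reached 1558 FPKM in Ercc1 AL, 2211 in Ercc1 DR and 4395 in wt AL. Called higher were Snord98 (1.17), Snord118 (1.15) and Snord11 (1.08). Snord11, in an intron of Nop58, was at 26261 FPKM in Ercc1 AL, 10785 in Ercc1 DR and 8808 in wt AL, so it was high in Ercc1 AL alone. With the interval midpoint the ratio of Snord98 was 0.95. Snord98 and Snord118 came from rows of 28 and 44 bases with fewer than 100 implied fragments in wt AL, and the Snord118 row is not at the RefSeq place of the gene, which encodes U8.

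Among H/ACA members, Snora75 in Ncl was at 551 FPKM in Ercc1 AL, 649 in Ercc1 DR and 1199 in wt AL, a log2 ratio of -1.61 for Ercc1 AL against wt AL. Snora36b, whose row overlaps the microRNA row Mir664, had a ratio of -1.34, and Snora17 in Snhg7 one of -1.30, and these 2 were at -0.85 and -0.81 as deposited. Snora24 stood out in the other direction. It was at 960 FPKM in Ercc1 AL, 1537 in Ercc1 DR and 137 in wt AL, a log2 ratio of 2.31 for Ercc1 AL against wt AL and 2.70 for Ercc1 DR against wt AL, with 378, 533 and 45.8 implied fragments in Ercc1 AL, Ercc1 DR and wt AL. Its host Snhg8 was at 112 FPKM in Ercc1 AL, 82.98 in Ercc1 DR and 129 in wt AL, the opposite order. The row had the status LOWDATA in each library. Snora15 (1.75) rested on 71.1 implied fragments in Ercc1 AL and 11.9 in wt AL, so neither of the 2 H/ACA members called higher had 100 implied fragments in wt AL.

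Setting Ercc1 DR against Ercc1 AL asks how diet goes with snoRNA levels within the mutant. On the general scale both classes were about 2-fold lower in the restricted mutant, with a median log2 ratio of -0.93 over 53 box C/D members and -0.94 over 32 H/ACA members. Of the box C/D members 24 were called lower, 45.3% against 14.2% of all rows, and 2 higher, 3.77% against 2.75%. Of the H/ACA members 14 were called lower (43.8%) and 0 higher. As deposited, with no rescaling, the medians were -0.60 and -0.60. Called lower were 14 box C/D (26.4%) and 4 H/ACA members (12.5%) against 8.49% of all rows. Higher were 3 box C/D (5.66%) and 0 H/ACA members against 6.44% of all rows.

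Other small RNA rows were lower still, with a median of -1.96 over 618 rows and 75.2% called lower, whereas rows that are no small RNA had a median of -0.13 and 10.8% called lower. When the scale was set by those other small RNAs instead, the sign turned. The median was then 1.08 for box C/D, with 29 members called higher (54.7%) and 1 lower, and 1.08 for H/ACA, with 18 higher (56.3%) and 0 lower. On that scale 86.1% of all rows were called higher and 0.657% lower, and rows that are no small RNA had a median of 1.89. snoRNAs in Ercc1 DR thus lay between the longer genes and the other small RNAs. The smaller share of short RNA in the Ercc1 DR library moves with the lower snoRNA values, and its part in them was not tested.

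**Figure D2:**
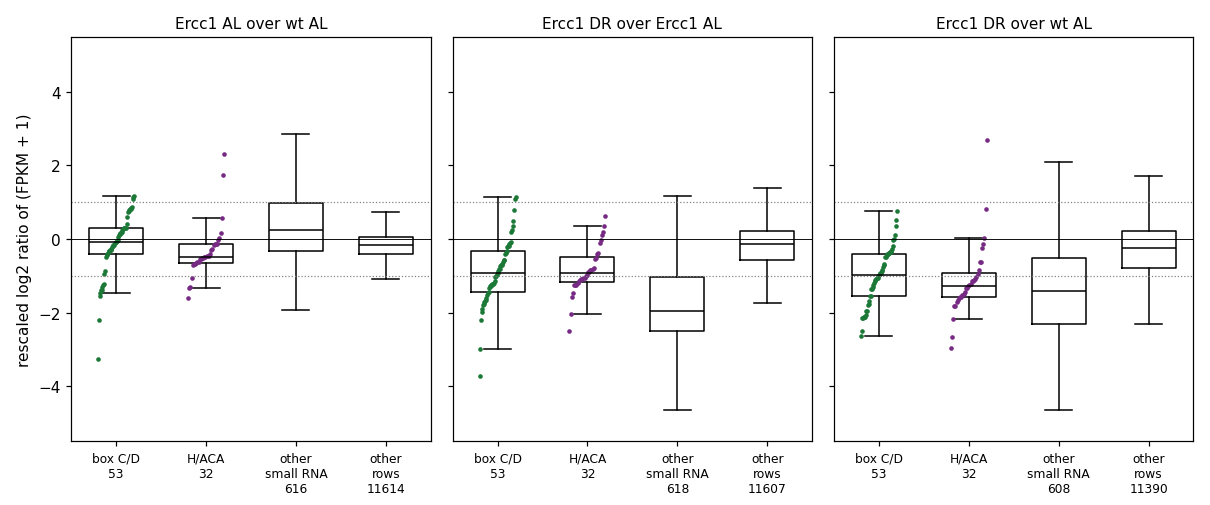
Rescaled log2 ratio of FPKM + 1 for box C/D and H/ACA members (points, 1 per gene), other small RNA rows and all other rows, in the 3 comparisons; boxes span the quartiles with the median line, whiskers reach 1.5 times the box, and numbers under the names are rows measured. For Ercc1 DR over Ercc1 AL the member medians of -0.93 and -0.94 lie between those of other small RNA (-1.96) and other rows (-0.13).

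Within box C/D, the difference between diets varied with the length of the row. Spearman's rho between log2 ratio and length was 0.56 over 53 members for Ercc1 DR against Ercc1 AL, 0.38 for Ercc1 DR against wt AL and -0.32 for Ercc1 AL against wt AL, values that share libraries. Of 15 members with rows under 60 bases, 12 were called lower in Ercc1 DR than in Ercc1 AL, with a median of -1.52. Of the 38 of 60 bases or more, 12 were called lower, with a median of -0.71. Over all rows 14.2% were called lower in this comparison. The length of a row is not always that of the snoRNA. Rows of the 73 box C/D genes had a median of 66 bases, and the 65 GENCODE transcripts one of 79. Over the 32 H/ACA members, which are longer, rho was 0.19 for Ercc1 DR against Ercc1 AL. Whether length itself has a part in the difference was not tested.

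**Figure D3:**
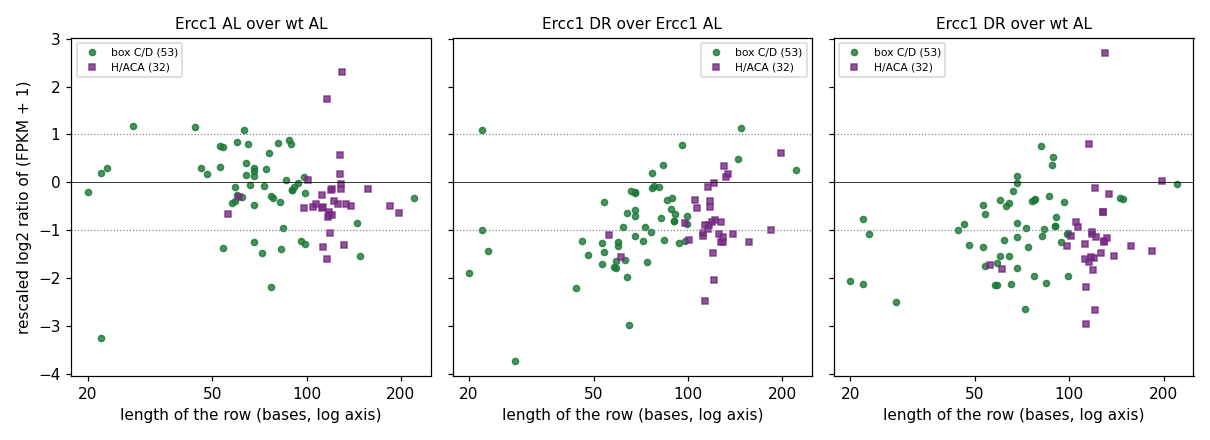
Rescaled log2 ratio of FPKM + 1 against the length of the row in bases (log axis) for the 53 box C/D and 32 H/ACA members in the 3 comparisons, 1 point per gene; dotted lines mark 2-fold. For Ercc1 DR over Ercc1 AL, shorter box C/D rows tend to lie lower (rho 0.56), apart from 1 row of 22 bases, Snord14c, above the upper dotted line.

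The box C/D member Snord85 had the largest difference between diets among members with at least 100 implied fragments in both libraries. It was at 1451030 FPKM in Ercc1 AL, 231246 in Ercc1 DR and 590424 in wt AL, a log2 ratio of -2.98 for Ercc1 DR against Ercc1 AL. On the scale of other small RNAs the ratio of Snord85 was -0.97, still below 0 but short of 2-fold. Snord98 in Ccar1 had a lower ratio, -3.72, from 60.1 implied fragments in Ercc1 AL and 7.56 in Ercc1 DR.

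Several other box C/D members were called lower in Ercc1 DR than in Ercc1 AL. Snord68 in Rpl13 was at 1679300 FPKM in Ercc1 AL, 737613 in Ercc1 DR and 1065490 in wt AL (-1.52). Snord66 in Eif4g1, the gene of a translation initiation factor, was at 290178 FPKM in Ercc1 AL, 107911 in Ercc1 DR and 279021 in wt AL (-1.76). Snord69 in Gnl3, which encodes nucleostemin, had a ratio of -1.80, Snord71 in Ap1g1 one of -1.98 and Snord53, read from a row of 20 bases, one of -1.90. Ercc1 DR was the lowest library in each of these members. All but Snord53 had 716 or more implied fragments in each library.

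The 2 box C/D members called higher in Ercc1 DR than in Ercc1 AL were Snord15a (1.14) and the LOWDATA row Snord14c (1.09, or 0.16 with the interval midpoint). Snord104 had a log2 ratio of -0.93 between the diets, and Snord73a in Rps3a1 one of -0.19, from 4601480 FPKM in Ercc1 AL, 5063490 in Ercc1 DR and 2965850 in wt AL. The nucleolin snoRNA Snord82 had a ratio of -0.22.

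Among H/ACA members, Snora41 in Eef1b2 was at 5222 FPKM in Ercc1 AL, 1170 in Ercc1 DR and 5338 in wt AL, a log2 ratio of -2.49 for Ercc1 DR against Ercc1 AL. Eef1b2, the gene of a translation elongation factor subunit, was at 17.1 FPKM in Ercc1 AL, 39.8 in Ercc1 DR and 11.3 in wt AL (0.84). The snoRNA was thus low in the library where its host was high. Snora26 in the long noncoding RNA gene Dancr was at 1797 FPKM in Ercc1 AL, 550 in Ercc1 DR and 2039 in wt AL (-2.04), from a LOWDATA row, while Dancr had a ratio of 0.77. Snora20 (-1.56), Snora3 (-1.47) and Snora70 (-1.26) came next. On the other side, Snora74a in Snhg4 had a ratio of 0.62, and Snora28 in Eif5 one of -0.03.

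Setting Ercc1 DR against wt AL places the restricted mutant beside the freely fed wild type. This comparison shares its libraries with the other 2, so it is not a separate observation. Box C/D members had a median log2 ratio of -0.98, with 26 of 53 called lower, 49.1% against 22.7% of all rows, and 0 higher against 4.51%. H/ACA members had a median of -1.27, with 23 of 32 called lower (71.9%) and 1 higher, Snora24. As deposited the medians were -0.20 and -0.49. Called lower were 11 box C/D (20.8%) and 5 H/ACA members (15.6%) against 8.56% of all rows. Higher were 3 box C/D (5.66%) and 2 H/ACA members (6.25%) against 23.9% of all rows. On the scale of other small RNAs the medians turned to 0.45 and 0.17, with 15 box C/D members (28.3%) and 5 H/ACA members (15.6%) called higher against 58% of all rows, and 2 of each class lower against 3.7% of all rows.

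Snora41 (-2.97), Snora26 (-2.67) and Snora36b (-2.19) had the lowest H/ACA ratios in Ercc1 DR against wt AL, and Snord88a (-2.65), Snord98 (-2.51), Snord66 (-2.15), Snord69 (-2.14) and Snord85 (-2.13) the lowest among box C/D. The highest among box C/D were Snord32a (0.75), Snord35a (0.52) and Snord123 (0.36).

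Over the 3 libraries as deposited, 54 box C/D members, Snord93 included, had their highest value in Ercc1 AL in 34 cases, in Ercc1 DR in 11 and in wt AL in 9. Their lowest value was in Ercc1 AL in 6 cases, in Ercc1 DR in 30 and in wt AL in 18. Of the 32 H/ACA members 14 were highest in Ercc1 AL, 4 in Ercc1 DR and 14 in wt AL, and 3, 23 and 6 were lowest in Ercc1 AL, Ercc1 DR and wt AL. The lowest library was thus most often Ercc1 DR in both classes. After rescaling, 17 of the 53 box C/D and 6 of the 32 H/ACA members stayed within 2-fold in all 3 comparisons. The same counts over all rows were not made, so none of these is shown to be particular to snoRNAs. As deposited, 68.0% of other small RNA rows were called lower in Ercc1 DR than in Ercc1 AL. Among rows that are no small RNA the share was 5.23%.

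Members were next read beside their hosts. Of the 109 genes 100 lay inside a longer gene of the tables, in 73 hosts, of which 21 were ribosomal protein genes. By GENCODE, 55 box C/D and 28 H/ACA members were in an intron on the host's strand. Over 55 hosts measured for Ercc1 DR against Ercc1 AL, the median host log2 ratio was 0.33 and the median of their members -1.07, and 15 hosts had the same sign as their members. For Ercc1 DR against wt AL the medians were 0.60 for 54 hosts and -1.24 for their members, and for Ercc1 AL against wt AL 0.17 for 56 hosts and -0.28 for their members. Spearman's rho between host and member ratios was -0.05, 0.02 and 0.04 in that order. The points share libraries and depth. A change of scaling moves a host and its members alike, so rho and the difference between them do not depend on it, while the counts of signs do.

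Taken member by member, 60 of 68 with a measured host stood below it for Ercc1 DR against Ercc1 AL. The median log2 difference between member and host was -1.10 over the 68. In this comparison other small RNA rows also stood below rows that are no small RNA, with medians of -1.96 and -0.13. A gap between short and longer rows was thus present outside snoRNAs too. Of the members called lower, 33 had a host that was not, and only 1 of the 68 members had a host called lower. Over all rows 14.2% were called lower, and 10.8% among rows that are no small RNA, to which the hosts belong. In Ercc1 DR against wt AL 59 of 68 stood below the host, and for Ercc1 AL against wt AL 47 of 71. Hosts with high ratios, such as Ncl (0.99) and Gnl3 (0.95) for Ercc1 DR against Ercc1 AL, held Snord82 and Snora75 (-0.22 and -0.10), and Snord69 and Snord19 (-1.80 and -0.42).

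**Figure D4:**
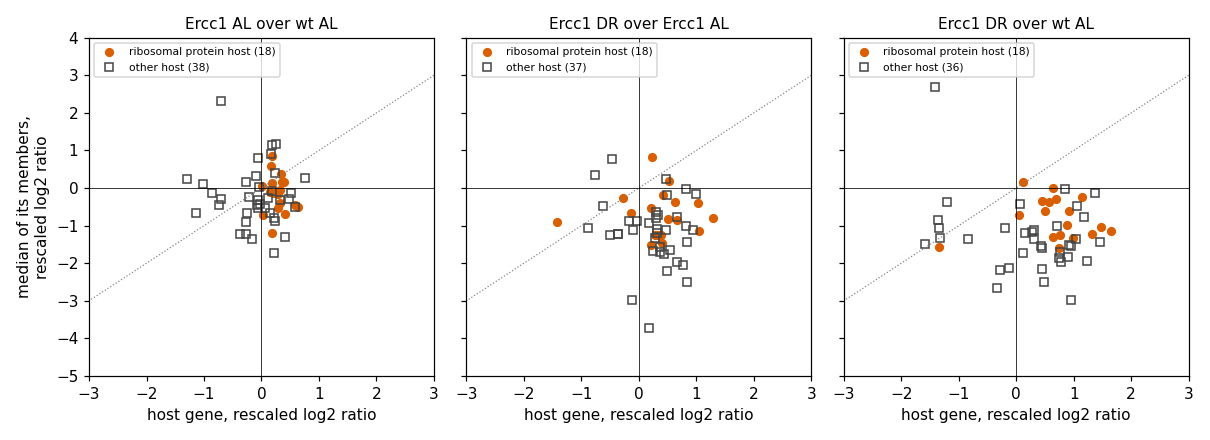
Median rescaled log2 ratio of the members of a host (vertical) against that of the host gene (horizontal), 1 point per host, with ribosomal protein hosts as filled circles and the dotted line marking equal ratios. For Ercc1 DR over Ercc1 AL most points lie below the line, with a host median of 0.33 and a member median of -1.07, and rho is -0.05 over 55 hosts.

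The kind of host went with the size of the difference. Between the diets, the 12 measured box C/D members in ribosomal protein genes had a median log2 ratio of -0.35 with 2 called lower and 1 higher, and the 34 in other genes of the tables a median of -1.09 with 18 lower and 0 higher. For H/ACA the values were closer, with -0.85 and 4 of 11 lower in ribosomal protein genes and -1.06 and 10 of 19 lower in other genes. In Ercc1 DR against wt AL, 3 of 12 box C/D members in ribosomal protein genes and 20 of 34 in other genes were lower. For H/ACA these counts were 7 of 11 and 16 of 19. Over all rows, 14.2% were called lower and 2.75% higher between the diets, and 22.7% lower in Ercc1 DR against wt AL. The counts of lower box C/D members in ribosomal protein genes thus stood near the shares of all rows. Those of H/ACA members there, 4 of 11 and 7 of 11, stood above them. The difference between the kinds of host was not tested.

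The Rpl13a locus holds Snord32a, Snord33, Snord34 and Snord35a, 4 box C/D members, and snoRNAs of this locus are known in mammalian cells for a role in the response to lipid and oxidative stress. Snord32a was at 986430 FPKM in Ercc1 AL, 1153620 in Ercc1 DR and 397882 in wt AL. Snord35a was at 334003 FPKM in Ercc1 AL, 336434 in Ercc1 DR and 136103 in wt AL. Both were higher in each Ercc1 library than in wt AL, by 0.82 and 0.80 on the log2 scale for Ercc1 AL and 0.75 and 0.52 for Ercc1 DR, within 2-fold after rescaling and over 2-fold as deposited.

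Their neighbours differed. Snord34 was at 130291 FPKM in Ercc1 AL, 144743 in Ercc1 DR and 95967 in wt AL, and its log2 ratio to wt AL was -0.05 in Ercc1 AL and -0.19 in Ercc1 DR. Snord33, whose row overlaps the microRNA row Mir5121, was at 148915 FPKM in Ercc1 AL, 111925 in Ercc1 DR and 141174 in wt AL, with -0.42 and -1.12. Rpl13a itself was at 57.3 FPKM in Ercc1 AL, 59.9 in Ercc1 DR and 31.7 in wt AL, with -0.27 for Ercc1 DR against Ercc1 AL. Members of 1 host gene thus took different courses between the same libraries, which no scaling of a whole library changes.

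The other host with at least 3 measured members was the gene 1810032O08Rik on chromosome 11, with the box C/D members Snord1a, Snord1b and Snord1c. Snord1b was at 141616 FPKM in Ercc1 AL, 163246 in Ercc1 DR and 123249 in wt AL, and Snord1c at 117126 FPKM in Ercc1 AL, 140232 in Ercc1 DR and 103884 in wt AL. Both were highest in Ercc1 DR as deposited, while their rescaled log2 ratios between the diets were -0.13 and -0.07. Snord1a, a LOWDATA row that overlaps an exon, was at 92398 FPKM in Ercc1 AL, 56430 in Ercc1 DR and 43164 in wt AL, highest in Ercc1 AL, with -1.04 between the diets.

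**Figure D5:**
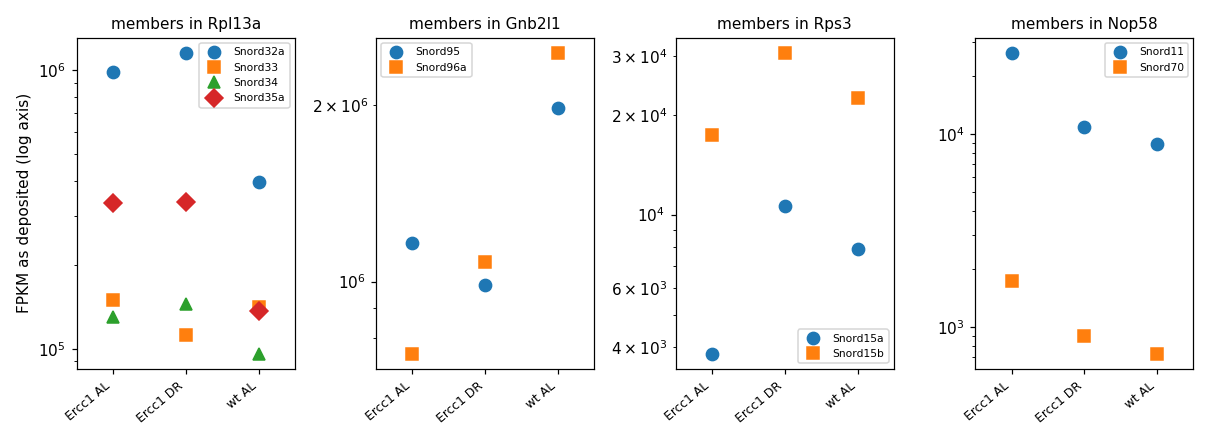
Deposited FPKM (log axis, a separate range per panel) of members that share a host, 1 point per library. In Rpl13a the members Snord32a and Snord35a are lowest in wt AL and Snord33 lowest in Ercc1 DR, in Gnb2l1 both members are highest in wt AL, in Rps3 both are lowest in Ercc1 AL, and in Nop58 both are highest in Ercc1 AL.

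Members known from other roles were few. Of the snoRNAs that take part in cleaving the ribosomal RNA precursor, 5 of 10 listed were in the tables, and Snord22 had no estimate. The other 4 (Snord118, Snord14a, Snord14c and Snord14d) came from rows of 22 to 44 bases that are not at the RefSeq place of the gene, so their levels may not be those of U8 and U14. Of the imprinted snoRNAs of brain, Snord64 was at 45419 FPKM in Ercc1 AL, 24557 in Ercc1 DR and 26281 in wt AL, with 381 to 703 implied fragments. Snord116, whose loss is tied to Prader-Willi syndrome in humans, was at 81.7 FPKM in Ercc1 AL, 58.6 in Ercc1 DR and 64.3 in wt AL, with fewer than 20 implied fragments. The 8 rows of Snord116 have nearly equal values, and near-identical copies can share reads, so the level of a single copy is uncertain. The 6 neuron markers listed summed to 3.13 FPKM in Ercc1 AL, 3.74 in Ercc1 DR and 2.10 in wt AL.

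Transcripts of the genes for the core protein partners did not have the lower values of the snoRNAs on the general scale. Protein was not measured. Of the genes of 4 core box C/D proteins, 3 had measured transcripts. Nop58 was at 6.54 FPKM in Ercc1 AL, 16.0 in Ercc1 DR and 3.76 in wt AL, with a log2 ratio of 0.84 for Ercc1 DR against Ercc1 AL and 1.06 for Ercc1 DR against wt AL. Fbl, the gene of the methylase fibrillarin, was at 8.35 FPKM in Ercc1 AL, 12.3 in Ercc1 DR and 4.78 in wt AL, within 2-fold after rescaling. Nop56 had no estimate in either Ercc1 library. The median of the 3 was 0.37 for Ercc1 DR against Ercc1 AL.

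Of the genes of the 4 core H/ACA proteins (Dkc1, Nhp2, Nop10 and Gar1) 0 passed 2-fold in any comparison. Their median was 0.12 for Ercc1 DR against Ercc1 AL. Among the genes of 13 assembly factors, 12 were measured, and Shq1, the gene of a chaperone of dyskerin, was the exception. It was at 10.1 FPKM in Ercc1 AL, 3.58 in Ercc1 DR and 24.1 in wt AL and was called lower in all 3 comparisons. Of the 11 noncoding host genes listed, 4 had no estimate in any library. Of the 6 measured for Ercc1 DR against Ercc1 AL 0 passed 2-fold, with a median of -0.58. Over all rows 2.75% were called higher and 14.2% lower in that comparison. Sets of 4 and 6 genes are too small to set against these shares.

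The checks of the libraries gave the following. Ercc1 was at 0.573 FPKM in Ercc1 AL, 0.475 in Ercc1 DR and 0.461 in wt AL with overlapping intervals, so its gene-level value does not check the genotype labels. The 10 hepatocyte markers listed were all detected and summed to 5974 FPKM in Ercc1 AL, 11923 in Ercc1 DR and 4715 in wt AL. The 6 Kupffer cell markers in the tables summed to 19.1, 13.0 and 14.8 FPKM, the 5 endothelial markers to 14.1, 9.67 and 15.8 FPKM and the 4 red blood cell markers to 20.4, 4.44 and 9.19 FPKM in Ercc1 AL, Ercc1 DR and wt AL. Between the diets 4 of 10 hepatocyte markers were called higher against 2.75% of all rows. Called lower were 0 of 6 Kupffer, 1 of 5 endothelial and 2 of 2 measured red blood cell markers against 14.2% of all rows. The part of cell makeup in the snoRNA values was not tested.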

How the data were processed

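Ribosomal-RNA-depleted total RNA of 3 mouse livers or liver pools was sequenced with the TruSeq v3 protocol, per the labels' protocols. The authors deposited FPKM values with a lower and an upper bound and a status per row, per the file headers, and the submitters' processing notes name the build mm10. No tool, version, annotation or strand setting is stated in the labels or headers. Rows with status HIDATA or FAIL were treated as missing.

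From these values log2 ratios of FPKM + 1 were computed for members with at least 1 FPKM in either library, rescaled to a median log2 ratio of 0 over 9109 genes, and called at 2-fold. The calculation was checked on simulated data. There is no test, since each group is 1 library. Python 3.11.15, pandas 2.3.3, NumPy 2.4.6, SciPy 1.17.1 and matplotlib 3.10.9 were used. Hosts, strands and sequences came from GENCODE M21, and places of genes were compared with RefSeq on GRCm38.p6. Table starts count from 0 and were raised by 1.

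Genes named were, per class, the 10 of highest mean FPKM, the 5 highest and 5 lowest ratios per comparison among members with at least 5 FPKM in both libraries, the lists and hosts with at least 3 measured members. Snord19, Snord23, Snora35 and the hosts named with 1 or 2 members, as well as the sequences printed, were chosen after their values were seen. The members and all lists were chosen with earlier results of these data known. Alternatives are another scaling, pseudocount, filter, the interval midpoint and repeated rows. Some items are not reported here.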

Additional observations from a re-analysis of the deposited data

How the results depend on the processing

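No paired analysis was possible because each group has 1 library, and no library could be left out. The counts and medians of both classes kept their direction and size, within 1.5 times or within the interval of the median, under a pseudocount of 0.1, no filter, a minimum of 5 FPKM and every row of repeated symbols. With the interval midpoint they did so except that 1 box C/D member was higher for Ercc1 DR against Ercc1 AL. The scaling decided the rest, for a stated reason of construction: it shifts every log2 ratio of a comparison alike. As deposited, for Ercc1 AL against wt AL, 11 box C/D members were higher (20.8%) and 3 lower (5.66%), with a median of 0.42. For H/ACA 1 member was lower (3.1%, median 0.017). Over all rows 5.57% were higher and 2.18% lower. Between the diets, 14 box C/D (26.4%, median -0.60) and 4 H/ACA members (12.5%) were lower, against 8.49% of all rows. For Ercc1 DR against wt AL, 3 box C/D members were higher (5.66%) and 11 lower (20.8%), with a median of -0.20. For H/ACA 2 were higher (6.25%) and 5 lower (15.6%), with a median of -0.49. Over all rows 23.9% were higher and 8.56% lower.

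Scaled to other small RNA, for Ercc1 AL against wt AL, 0 box C/D members were higher against 1.24% of all rows. The box C/D median was -0.33 and the H/ACA median -0.74. Between the diets, 29 box C/D members were higher and 1 lower (median 1.08), and 18 H/ACA higher and 0 lower (median 1.08), against 86.1% of all rows higher and 0.657% lower. For Ercc1 DR against wt AL, 15 box C/D members were higher and 2 lower (median 0.45), and 5 H/ACA higher and 2 lower (median 0.17), against 58% of all rows higher and 3.7% lower. Of 67 calls of named members, 26 turned sign and 21 dropped under 2-fold with the same sign under this scaling, 28 dropped under 2-fold as deposited and 5 with the interval midpoint. Between the diets the log2 ratios became 0.92 for Snora19, 0.45 for Snora20, 0.55 for Snora3, 0.82 for Snora5c, 0.78 for Snora62, 0.76 for Snora70, 0.40 for Snord11, 0.59 for Snord14d, 0.11 for Snord53, 0.80 for Snord64, 0.26 for Snord66, 0.50 for Snord68, 0.22 for Snord69, 0.034 for Snord71, 0.76 for Snord72 and 0.80 for Snord88a. In Ercc1 DR against wt AL they became 0.28 for Snora17, 0.35 for Snora34, 0.32 for Snora5c, 0.39 for Snora65, 0.10 for Snora68, 0.18 for Snora70, 0.43 for Snord118, 0.35 for Snord14d, 0.32 for Snord33 and 0.12 for Snord68.

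The last 3 alternatives were chosen after seeing the data. Over members with at least 100 implied fragments in both libraries, 1 box C/D and 0 H/ACA members were higher for Ercc1 AL against wt AL, 1 box C/D member for Ercc1 DR against Ercc1 AL and 0 H/ACA for Ercc1 DR against wt AL. Without 20 members with a doubtful place, an overlap or the status LOWDATA, 1 H/ACA member was higher for Ercc1 AL against wt AL, 1 box C/D for Ercc1 DR against Ercc1 AL and 0 H/ACA for Ercc1 DR against wt AL. Over rows of at least 60 bases, 1 box C/D member was higher for Ercc1 AL against wt AL, and 1 was higher and 12 lower for Ercc1 DR against Ercc1 AL, and 15 were lower for Ercc1 DR against wt AL. Shares over all rows under these 3 limits were not made. Without them, 1.87% of all rows were higher and 6.47% lower for Ercc1 AL against wt AL. The shares were 2.75% and 14.2% for Ercc1 DR against Ercc1 AL, and 4.51% and 22.7% for Ercc1 DR against wt AL. Depth limits members with under 100 implied fragments, 9 to 11 box C/D and 3 to 4 H/ACA genes per library.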
